A study of Mus musculus with 12 samples.

Results

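The Hox genes encode homeodomain transcription factors that set position along the body axis and along the limb. All 39 rows of the deposited table whose symbol begins with Hox, a cluster letter from a to d and a number were taken, out of 24528 genes. They are spread over 4 clusters, with 11 members in HoxA, 10 in HoxB, 9 in HoxC and 9 in HoxD. Poly-A RNA came from bulk gastrocnemius, a calf muscle, of male mice aged 4 months, with 6 WT and 6 KO animals. Both groups carried floxed Ank2 alleles (Ank2f/f), and the WT group had no Cre. The KO group carried the same alleles with HSA-Cre+, a Cre under the human skeletal actin promoter, which is active in muscle fibres and not in the connective tissue, vessel or nerve cells around them. The comparison asks which transcripts differ between these genotypes, and here which Hox genes the muscle expressed and whether they differed.

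Within a cluster the genes lie in the order in which they are used along the body, and genes at the same place in different clusters form a paralog group, numbered from 1 at the anterior end to 13 at the posterior end. In the developing hindlimb, paralog group 10 is needed for the thigh bone, group 11 for the lower leg bones and group 13 for the foot. Adult fibroblasts, tendon cells and muscle stem cells keep Hox expression that reflects where in the body they lie. Hox proteins bind DNA with the TALE homeodomain cofactors of the Meis, Pbx and Pknox families, and Polycomb and Trithorax complexes keep Hox genes silent or active.

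The values are on a log2 scale with 1 floor value of 5.57 shared by all libraries, which stands for no detected reads. The scale compresses differences at low levels. For levels, the values were put back to estimated reads, scaled to a common depth and divided by the kilobases of merged exons, and these are called scaled reads per kilobase. Estimated depth was 12284434 to 16909431 reads in WT and 13343154 to 18700530 in KO. Ank2, the targeted gene, averaged 8.88 ± 0.35 over the 6 WT libraries and 7.74 ± 0.19 over the 6 KO libraries (SD), and every KO library lay below every WT library (exact two-sided permutation test, p = 0.00216, the minimum with 924 assignments). Its change was -1.15 (SE 0.14, limma adjusted p = 0.000877). The samples were muscle by their markers: the 10 fibre genes had summed scaled reads of 3262197 to 4303271 in WT and 3152175 to 3880514 in KO. All were above the floor in all 12 libraries except Myh7, which stood at the floor in KO 5. Myh7 read 11.02 to 14.27 in WT and 5.57 to 12.67 in KO. Its change of -3.37 (SE 1.25, limma adjusted p = 0.128) was the lowest of all tested genes. In all, 757 genes were called (6.19% of those tested, 3.12% higher and 3.08% lower in KO), and leaving out 1 library gave between 190 (without KO 6) and 1515 (without KO 2). Among markers of other cell types, 1 of 10 endothelial genes (Flt1), 1 of 8 smooth muscle and pericyte genes (Myh11) and 1 of 3 tested adipocyte genes (Adipoq) were called lower in KO, and of 5 tested satellite cell genes Cdh15 was called lower and Sdc4 higher, beside 3.08% of all tested genes called lower and 3.12% higher. Plin1, an adipocyte gene below the filter, was also called lower in the fit without the filter. The median change was -0.22 over endothelial markers (2 of 10 estimates above 0) and -0.26 over smooth muscle and pericyte markers (0 of 8). It was -0.34 over adipocyte markers (0 of 3) and 0.24 over macrophage markers (7 of 8), beside -0.01 over all tested genes. Fibroblast, tendon, satellite cell and Schwann cell markers had medians of 0.06, 0.21, 0.06 and -0.08. The part of these cells and of fibre types in the Hox values was not tested.

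Most Hox genes were detected in the muscle. In WT the 5 highest mean levels were those of Hoxc10, Hoxd8, Hoxd9, Hoxa10 and Hoxd10, with Hoxa11 and Hoxc9 close to the last. In KO, Hoxc9 stood above Hoxd10 (66.7 against 50.8 scaled reads per kilobase). Most members of groups 12 and 13 stood at or near the floor. Of the 39, 25 reached 10 estimated reads in 6 or more libraries, the filter for testing, and were tested, 9 in HoxA, 5 in HoxB, 7 in HoxC and 4 in HoxD. Another 6, Hoxb9 and Hoxd3 among them, lay above the floor in 11 or 12 libraries but below the filter. Hoxd11 was above the floor in WT 4 and WT 5 only, Hoxc13 in KO 4 only and Hoxd13 in KO 1 only, each at about 1 read. The last 5, Hoxb1, Hoxb13, Hoxc12, Hoxd1 and Hoxd12, stood at the floor in every library. The members that passed are the more abundant ones and do not stand for all 39.

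**Figure D1:**
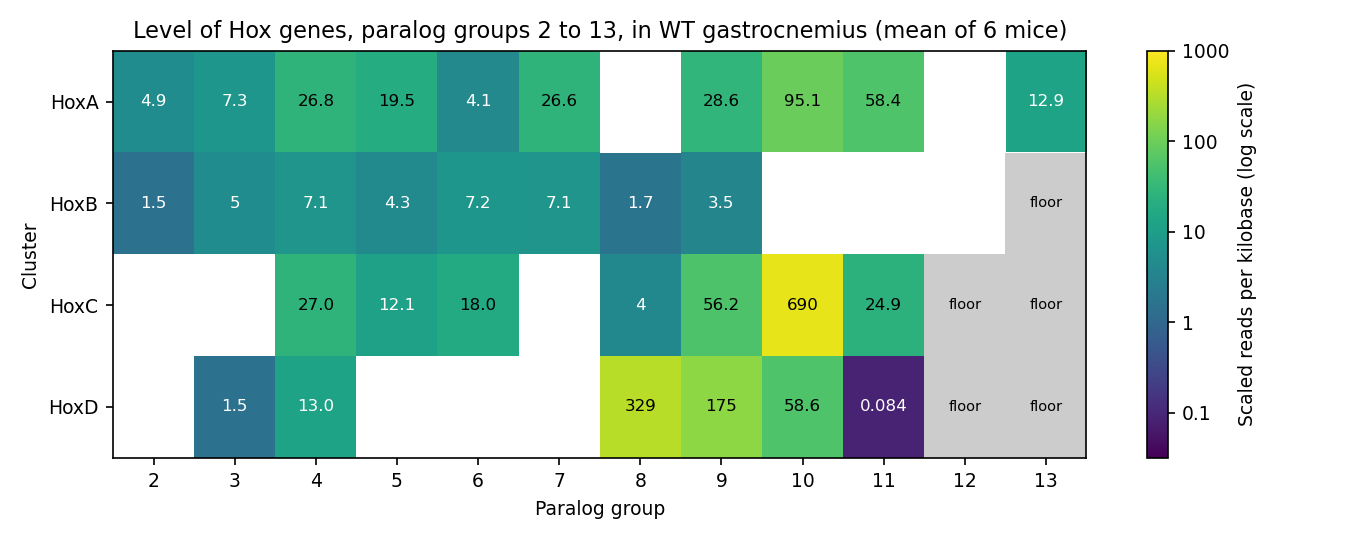
Mean level of the Hox genes of paralog groups 2 to 13 in 6 WT mice, in scaled reads per kilobase on a logarithmic colour scale, by cluster (rows) and paralog group (columns); white marks places with no gene in the table and grey marks genes at the floor in all WT libraries. Hoxc10 stands highest at 689.7, followed by Hoxd8 at 328.7 and Hoxd9 at 174.7, and in HoxD the level drops between group 10 (58.6) and group 11 (0.084).

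Hoxc10 was the most abundant Hox transcript by a wide margin. Its level per length in WT was 689.7 ± 107 scaled reads per kilobase (SD, n = 6), with libraries from 607.4 to 892. Hoxd8 followed with 328.7 ± 48.8 and Hoxd9 with 174.7 ± 23.3. Hoxa10 was at 95.1 ± 9.30. The WT ranges of these 4 genes did not overlap: 288.6 to 423.6 for Hoxd8, 155.8 to 219 for Hoxd9 and 78.6 to 104 for Hoxa10. The next 3, Hoxd10 (58.6 ± 16.04), Hoxa11 (58.4 ± 17.8) and Hoxc9 (56.2 ± 11.6), did not differ beyond their spread, and Hoxd10 reached into the range of Hoxa10 at 84.3. Then came Hoxa9 (28.6), Hoxc4 (27.01), Hoxa4 (26.8), Hoxa7 (26.6) and Hoxc11 (24.9), whose ranges also overlapped. Among 11973 tested genes with a gene model, Hoxc10 lay above 94.0% in mean WT level per length, Hoxd8 above 88.1% and Hoxd9 above 79.5%. Hoxc8, the lowest tested member in WT, lay above 6.19%.

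Summed over all Hox genes, the level per length averaged 1731 ± 219 over WT and 1869 ± 91.6 over KO libraries (SD, n = 6 each), with ranges of 1517 to 2144 and 1739 to 1957. HoxC held 47.98% ± 0.836 of this sum in WT, HoxD 33.3% ± 1.198, HoxA 16.5% ± 1.46 and HoxB 2.20% ± 0.649. In KO the shares were 50.8% ± 1.95, 32.1% ± 2.10, 15.2% ± 1.12 and 1.99% ± 0.434. By paralog group, group 10 held 48.7% ± 1.56 in WT and 49.5% ± 2.83 in KO, group 8 held 19.3% ± 0.465 and 17.3% ± 1.51, and group 9 held 15.2% ± 0.920 and 17.1% ± 1.31. Group 11 held 4.80% ± 1.05 and 3.59% ± 0.791. Group 4, the highest of the groups before 8, held 4.28% ± 0.540 and 4.97% ± 0.858. Hoxc10 alone made up 39.7% ± 1.34 in WT and 42.0% ± 2.24 in KO. No test was made on these sums.

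**Figure D2:**
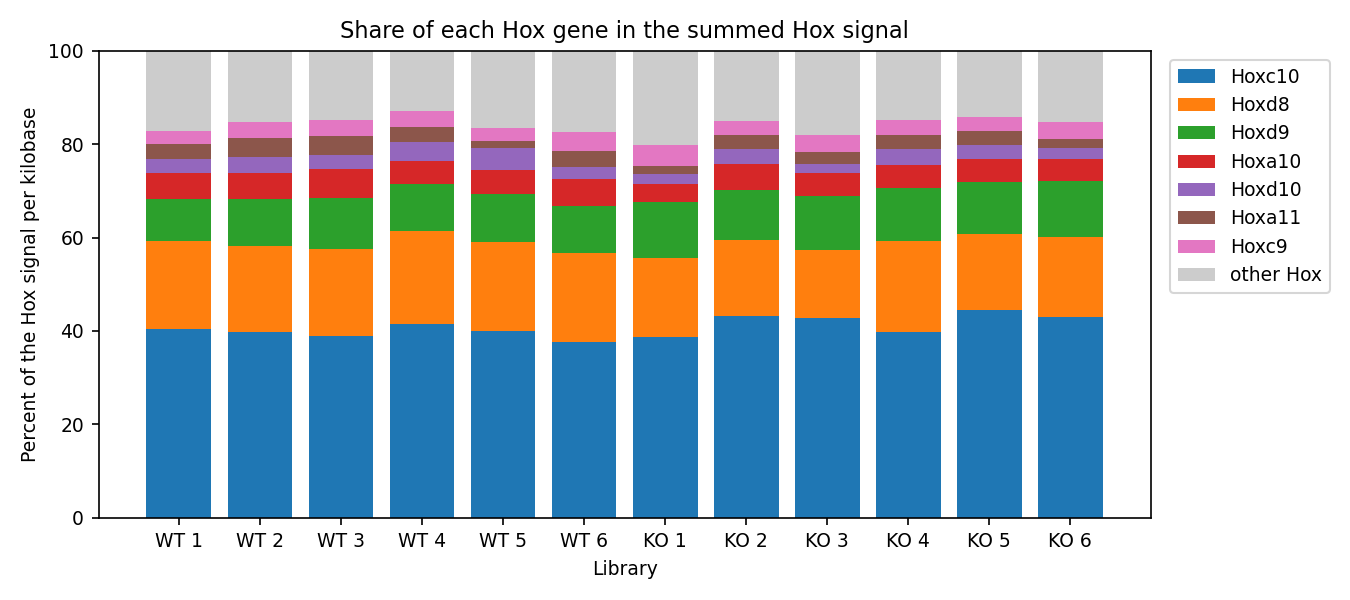
Share of each of the 7 most abundant Hox genes in the summed level per length of all Hox genes, for each of 12 libraries (bars), in percent; the grey part holds the other Hox genes. Hoxc10 takes 37.6% to 41.6% in WT and 38.6% to 44.4% in KO, and the order of the leading 3 genes is the same in every library.

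Of the limb identity factors outside the clusters, the hindlimb factor was detected in every library and the forelimb factor in 3. Tbx4, the T-box factor of the hindlimb, read 6.87, 6.87, 7.28, 7.03, 6.77 and 7.05 in WT 1 to 6 and 6.66, 7.15, 7.42, 7.46, 7.10 and 7.38 in KO 1 to 6, above the floor in all 12 libraries. Tbx5, its forelimb counterpart, stood at the floor in 9 libraries and read 5.78, 5.78 and 5.76 in WT 4, WT 6 and KO 1, about 1 read each. Pitx1, which specifies the hindlimb upstream of Tbx4, was low and above the floor in 10 libraries, with WT libraries at 5.94 ± 0.23 and KO libraries at 5.86 ± 0.18 (SD, n = 6 each). Isl1, an early hindlimb factor, was above the floor in all 12, at 5.89 ± 0.10 and 6.09 ± 0.27. Of these 4, Tbx4 alone passed the filter, and its change was 0.22 (SE 0.12, limma adjusted p = 0.278). Of the 7 posterior and ParaHox homeobox genes Cdx1, Cdx2, Cdx4, Gsx1, Pdx1, Evx1 and Evx2, 4 stood at the floor in every library and none passed the filter.

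Across genotypes, 1 of the 25 tested Hox genes was called and it was higher in KO. It was Hoxd9, with a change of 0.26 (SE 0.07, 95% interval 0.10 to 0.41, limma adjusted p = 0.0479). That is 4% of the tested members, beside 6.19% of all 12222 tested genes called, 3.12% higher and 3.08% lower in KO, so the share among Hox genes was near that of the table. No Hox gene was called lower. At an unadjusted p at or under 0.05 there were 5 of 25 Hox genes, all higher in KO. Over all tested genes the share was 26.0%, with 11.9% higher and 14.1% lower. This direction depended in part on the filter, which used reads not scaled for depth. Hoxa2, 1 of the 5, averaged 8.02 estimated reads in WT and 14.5 in KO, so it passed mainly through KO libraries. Hoxb9, lower in KO, was below the filter, and the fit without it gave a limma unadjusted p of 0.01035. In none of the 25 were the KO and WT libraries fully apart, against 2.47% of all tested genes. The estimate was above 0 for 15 and below 0 for 10, with a median of 0.08, beside 47.6% above 0 and a median of -0.01 over all tested genes. Leaving out 1 library moved the Hox median between 0.036 (without KO 1) and 0.114 (without WT 1). On the log2 scale of estimated reads, which compresses low values less, it was 0.19 to 0.22. It was 0.034 with a transcript length correction and 0.058 with quantile normalization, each with 14 estimates above 0. Without the filter, 21 of 34 Hox estimates were above 0, with a median of 0.032. The standard errors were 0.07 to 0.15, and the estimates ran from -0.20 to 0.30.

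**Figure D3:**
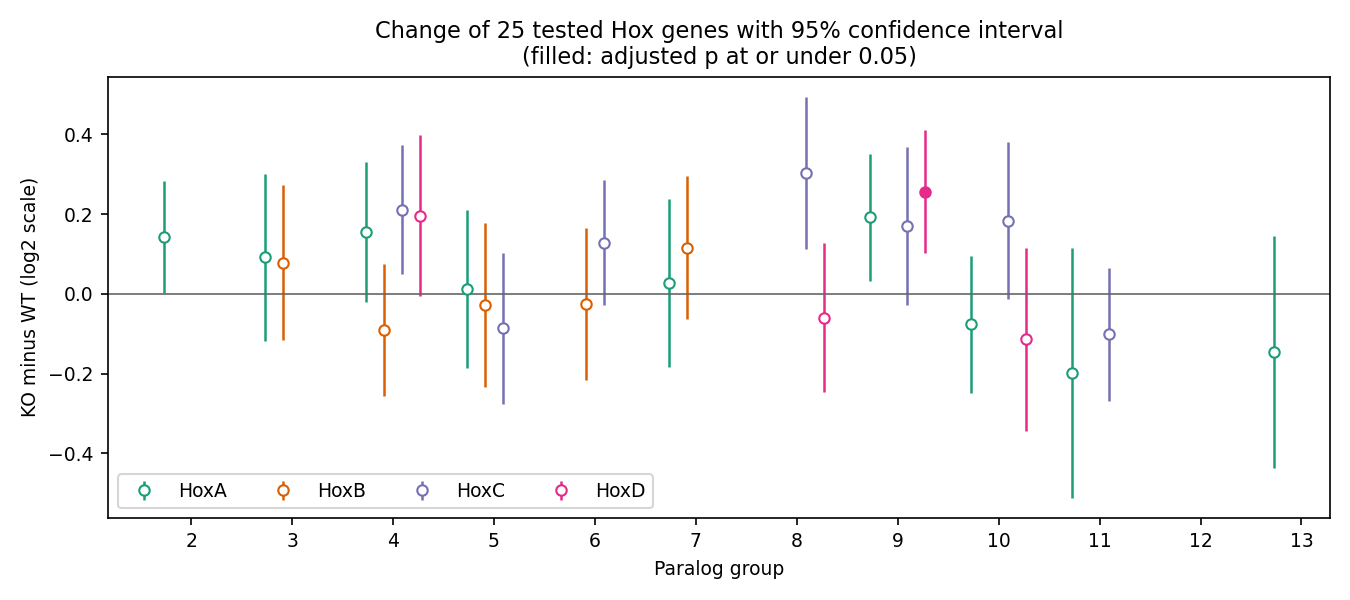
Difference between the KO and WT means in deposited log2 units (y axis) for the 25 tested Hox genes by paralog group (x axis), coloured by cluster, with 95% confidence intervals from limma; the filled point is the gene called at an adjusted p at or under 0.05. Only Hoxd9 (0.26) is filled, the 3 members of group 9 lie above 0, and the 3 of groups 11 and 13 lie below 0 with intervals that include 0.

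Paralog group 9 held the called gene. Reads from a stretch shared by paralogs cannot be told apart. The longest stretch that any Hoxd9 transcript shares with another Hox gene is 40 bases, with Hoxb9.

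Hoxd9 lies on chromosome 2 from 74697727 to 74700208 on the plus strand (mm10), and its exons overlap no other annotated gene. Its values were 8.76, 8.80, 8.90, 9.13, 8.72 and 8.79 in WT 1 to 6 and 9.14, 9.06, 9.07, 9.02, 9.12 and 9.22 in KO 1 to 6. All 6 KO libraries lay above the WT median, but WT 4 at 9.13 was higher than 4 of them. In scaled reads the KO mean was 1.23 times the WT mean, from 174.7 ± 23.3 to 215.5 ± 12.5 per kilobase (SD, n = 6 each), with 294 to 565 estimated reads behind each value. The call sat at the threshold. Leaving out any of WT replicates 1, 2, 3, 5 and 6 or KO replicates 1, 3, 5 and 6 ended it (limma adjusted p from 0.0625 to 0.118), whereas it held without WT 4, KO 2 or KO 4 (0.0116, 0.0381 and 0.0427). It also ended with no trend and no robust moderation (0.0536), without the filter (0.0562), with a transcript length correction (0.0687, change 0.21) and with the replicate number as a block (0.0769), and the estimates stayed between 0.21 and 0.33. Markers of cells known to carry Hox expression overlapped between the groups: the 12 fibroblast markers summed to 11039 to 20714 scaled reads in WT and 13096 to 20470 in KO, and the 7 tendon markers to 753 to 1142 and 617.2 to 1441. All of these markers were above the floor in all 12 libraries, 18 were tested and none was called. The 7 satellite cell markers, of the muscle stem cells, summed to 731.3 to 812.4 in WT and 685.3 to 828.9 in KO, and of the 5 tested Cdh15 was called lower (-0.37, limma adjusted p = 0.0342) and Sdc4 higher (0.27, 0.033). The part of these cells in the result was not tested, and in bulk muscle fewer cells of a type and less RNA per cell cannot be told apart.

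Hoxa9, a regulator of blood and muscle stem cells, read 7.93, 8.05, 7.88, 8.03, 7.80 and 7.93 in WT 1 to 6 and 8.38, 8.14, 8.14, 7.96, 8.04 and 8.10 in KO 1 to 6. Every KO library lay above the WT median and 4 lay above all WT libraries. It had a change of 0.19 (SE 0.08, limma adjusted p = 0.124). Hoxc9, a factor of the thoracic trunk, read 7.66, 7.76, 7.78, 8.03, 7.49 and 7.94 in WT and 8.18, 7.82, 7.98, 7.80, 7.85 and 8.05 in KO, with a change of 0.17 (SE 0.09, limma adjusted p = 0.264). Neither passed the test. All 3 tested members of group 9 had estimates above 0, between 0.17 and 0.26. The remaining member, Hoxb9, was below the filter and went the other way: its values were 6.30, 5.99, 6.25, 6.19, 6.23 and 6.16 in WT and 6.07, 5.79, 6.06, 5.83, 6.03 and 6.01 in KO, at 0.995 to 11.0 estimated reads, and without the filter its change was -0.22 (SE 0.08, limma adjusted p = 0.107).

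Paralog group 10 was the most abundant group and held no call. The homeobox coding sequences of its 3 members, from GENCODE release M21 transcripts, are shown because they show how far the paralogs differ in the stretch that encodes the DNA-binding homeodomain. Capitals mark bases that differ from Hoxc10 at the same place.
Hoxc10: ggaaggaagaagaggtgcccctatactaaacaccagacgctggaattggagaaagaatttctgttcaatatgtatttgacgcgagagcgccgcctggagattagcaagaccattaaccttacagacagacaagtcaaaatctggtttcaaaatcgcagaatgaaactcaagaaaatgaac
Hoxa10: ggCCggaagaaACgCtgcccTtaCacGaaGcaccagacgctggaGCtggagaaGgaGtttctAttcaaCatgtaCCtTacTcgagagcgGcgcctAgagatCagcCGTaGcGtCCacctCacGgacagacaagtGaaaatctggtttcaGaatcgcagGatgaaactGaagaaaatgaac
Hoxd10: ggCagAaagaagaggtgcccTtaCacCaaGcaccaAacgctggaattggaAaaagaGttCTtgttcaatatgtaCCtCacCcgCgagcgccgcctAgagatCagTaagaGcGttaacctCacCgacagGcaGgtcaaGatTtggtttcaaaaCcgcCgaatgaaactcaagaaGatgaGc
Hoxa10 differed from Hoxc10 at 35 of the 180 bases and Hoxd10 at 31, with longest identical runs of 14 and 16 bases. Over all Hox genes, the median identity of the homeobox was 80.6% within a paralog group (42 pairs) and 61.7% within a cluster across groups (172 pairs). Annotated transcripts of Hoxc10 and Hoxc5 share an identical stretch of 168 bases. Exons of Hoxc5 overlap 8.70% of the merged exons of Hoxc10, so some reads of the shared part could count for either gene.

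Hoxc10, which marks the hindlimb and the lumbar spinal cord, lies on chromosome 15 from 102966796 to 102971893 on the plus strand. It read 10.52, 10.40, 10.37, 10.81, 10.29 and 10.31 in WT 1 to 6 and 10.50, 10.73, 10.61, 10.47, 10.77 and 10.73 in KO 1 to 6. It had a change of 0.18 (SE 0.09, limma adjusted p = 0.225), and in scaled reads the KO mean was 1.14 times the WT mean. All KO libraries lay above the WT median, but WT 4 was the highest of all 12. Without WT 4 its adjusted p was 0.0600, the lowest of all alternatives tried. Hoxa10, known in the uterus and in the thigh and lumbar skeleton, read 8.68, 8.61, 8.73, 8.75, 8.43 and 8.64 in WT and 8.30, 8.79, 8.54, 8.51, 8.64 and 8.61 in KO, with a change of -0.08 (SE 0.08, limma adjusted p = 0.574). Hoxd10 read 7.45, 7.54, 7.40, 7.90, 7.73 and 7.27 in WT and 7.26, 7.62, 7.18, 7.58, 7.58 and 7.37 in KO, with a change of -0.11 (SE 0.11, limma adjusted p = 0.527). The groups overlapped in each of the 3 genes. The 95% intervals were -0.01 to 0.38 for Hoxc10, -0.25 to 0.09 for Hoxa10 and -0.34 to 0.11 for Hoxd10.

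Paralog groups 11 and 13 are the most distal in the limb, and no member passed the test. Hoxa11, which patterns the lower leg and is active in muscle connective tissue, read 7.78, 7.94, 7.91, 7.96, 7.05 and 7.77 in WT 1 to 6 and 7.17, 7.79, 7.54, 7.63, 7.73 and 7.36 in KO 1 to 6. In WT, 5 libraries lay between 7.77 and 7.96 and WT 5 lay apart at 7.05. It had a change of -0.20 (SE 0.15, limma adjusted p = 0.409), and without WT 5 it was -0.34 (limma adjusted p = 0.0823). The same library was the lowest WT library for the antisense RNA Hoxa11os, at 6.52 against 7.10 to 7.40 in the others, for Hoxa10 and for Hoxa13, while its Hoxd10 value of 7.73 was the second highest. WT 5 also had the highest summed fibroblast markers, 20714 scaled reads. The libraries do not mark strand and 35.0% of the merged exons of Hoxa11 overlap Hoxa11os, so reads of the shared part cannot be assigned between them.

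Hoxc11 read 6.76, 7.10, 6.97, 7.08, 6.93 and 7.08 in WT and 6.72, 7.07, 6.83, 6.86, 6.95 and 6.89 in KO, with a change of -0.10 (SE 0.08, limma adjusted p = 0.430). Hoxa13, the gene of the foot and the hindgut, read 6.83, 7.07, 6.58, 6.64, 6.36 and 6.67 in WT and 6.35, 6.99, 6.31, 6.69, 6.75 and 6.19 in KO, with a change of -0.15 (SE 0.14, limma adjusted p = 0.522). All 3 tested genes of these groups had estimates below 0, from -0.20 to -0.10, and their intervals included 0. Hoxa13 was the only gene of group 13 that passed the filter, at 9.99 to 55.7 estimated reads per library.

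In HoxD the level dropped between neighbouring genes. Hoxd10 had 40.9 to 84.3 scaled reads per kilobase in WT, whereas Hoxd11 had 0 to 0.269 and Hoxd12 and Hoxd13 stood at the floor. The 250 bases before the RefSeq starts of Hoxd10 and Hoxd11 (GRCm38.p6, plus strand) are shown as the regions on either side of this edge, with CpG pairs in capitals. For Hoxd11, RefSeq lists 2 starts, and the one nearer to Hoxd10 is shown.
Hoxd10 (chr2:74691641-74691890): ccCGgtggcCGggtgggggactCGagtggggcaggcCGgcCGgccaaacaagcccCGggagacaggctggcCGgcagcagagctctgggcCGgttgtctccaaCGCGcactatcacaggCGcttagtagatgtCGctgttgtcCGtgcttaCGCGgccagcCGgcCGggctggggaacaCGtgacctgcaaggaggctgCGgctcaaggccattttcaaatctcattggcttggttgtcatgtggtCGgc
Hoxd11 (chr2:74682073-74682322): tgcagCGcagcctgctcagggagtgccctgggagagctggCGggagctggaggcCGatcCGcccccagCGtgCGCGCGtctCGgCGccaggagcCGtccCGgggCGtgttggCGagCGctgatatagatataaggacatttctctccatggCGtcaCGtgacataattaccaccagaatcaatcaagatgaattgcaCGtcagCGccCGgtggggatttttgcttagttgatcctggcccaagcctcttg
They hold 20 CpG pairs each, and the window at the other Hoxd11 start holds 2, beside a median of 6 (quartiles 2 and 16) over 32851 promoters of the same length. The bipartite Hox and Pbx motif TGATNNAT, searched on both strands, was found in the shown Hoxd11 window and not in that of Hoxd10, beside 7.68% of all promoters. A TATAAA box, also searched on both strands, was in neither, beside 12.4% of all promoters. RefSeq promoter windows were matched for 22 of the 39 members.

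Paralog group 8 held the second most abundant gene. Hoxd8, on chromosome 2 from 74704615 to 74707933, read 9.98, 9.87, 9.86, 10.29, 9.79 and 9.89 in WT 1 to 6 and 9.89, 9.91, 9.65, 9.99, 9.91 and 9.98 in KO 1 to 6. It had a change of -0.06 (SE 0.09, limma adjusted p = 0.697); the estimate turned to 0.01 without WT 4, its highest library. Hoxc8, a factor of the thoracic trunk, was much lower, at 4.03 ± 1.76 scaled reads per kilobase over WT libraries and 8.38 ± 2.82 over KO libraries (SD, n = 6 each). It read 6.01, 6.29, 6.25, 6.34, 6.15 and 6.47 in WT and 6.58, 6.46, 6.80, 6.37, 6.47 and 6.66 in KO. Only WT 6, at 6.47, reached into the KO range, which began at 6.37. Hoxc8 had the largest estimate of all tested Hox genes, a change of 0.30 (SE 0.09, limma adjusted p = 0.0544), and just missed the threshold. Of 12 fits that left out 1 library it passed in 3, without WT 6, KO 2 or KO 4 (limma adjusted p = 0.0495, 0.0360 and 0.0382). It passed in 0 of 9 fits with other settings, and over all these fits its adjusted p reached 0.124. Hoxc8 rested on 4.01 to 39.9 estimated reads per library.

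**Figure D4:**
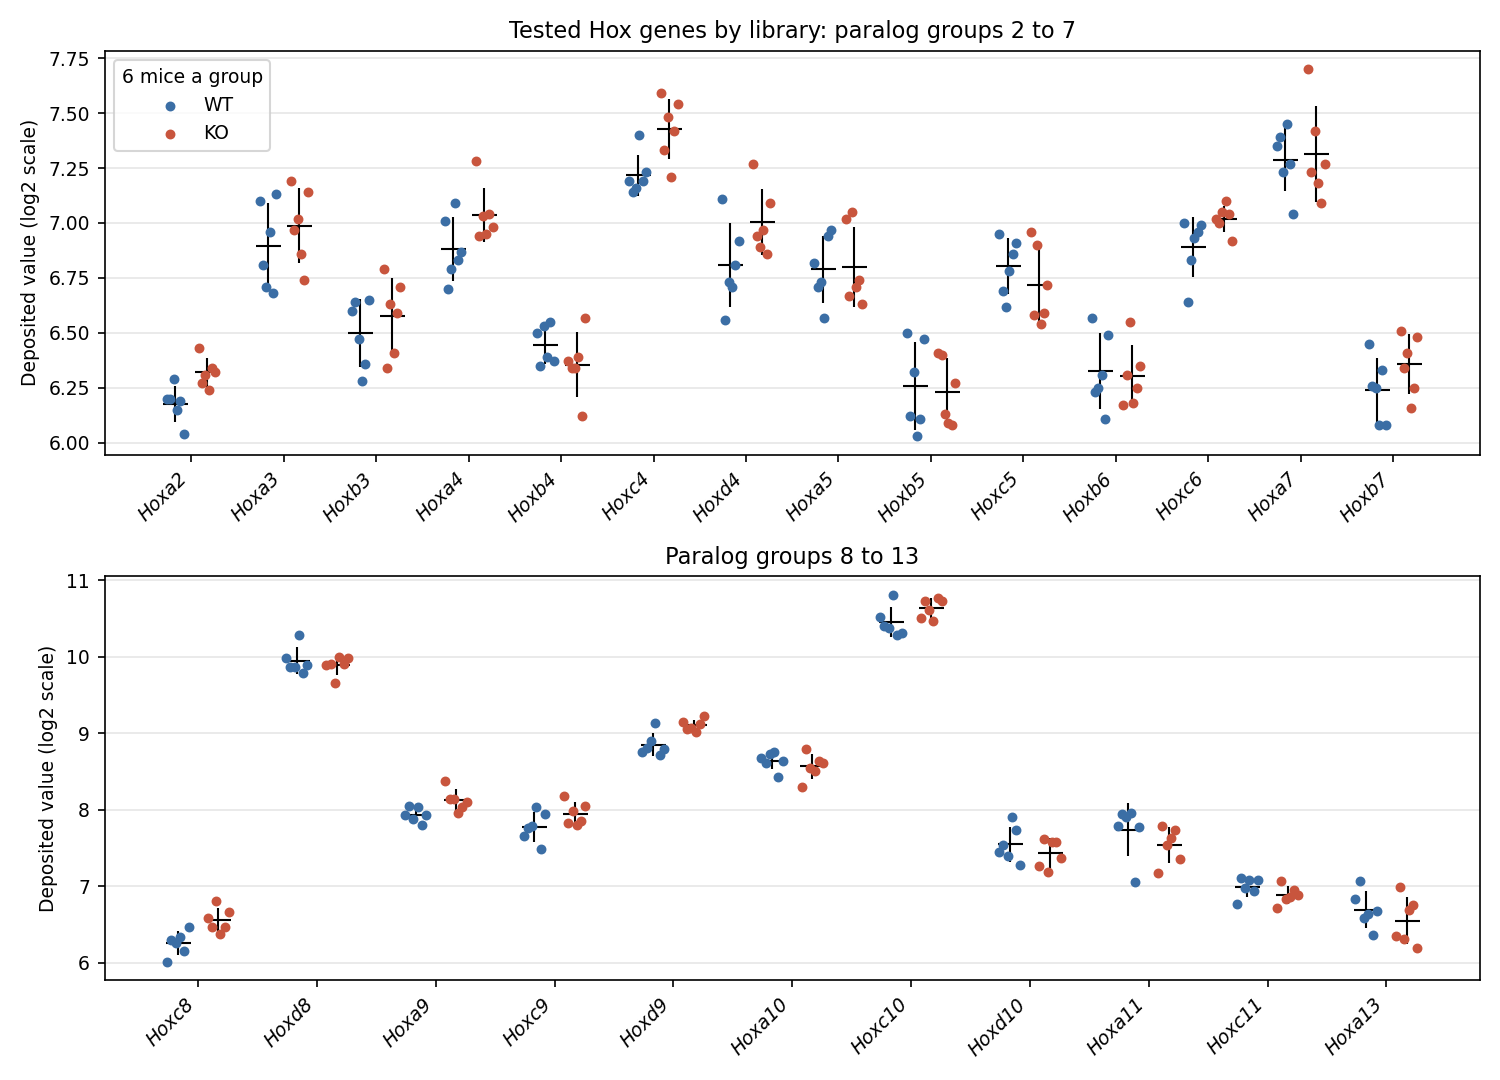
Deposited log2 value of each tested Hox gene in each library (points; blue WT, red KO), with the mean and SD of 6 mice (black), for paralog groups 2 to 7 (upper panel) and 8 to 13 (lower panel). KO and WT points overlap for every gene; the KO points of Hoxd9 sit at 9.02 to 9.22 against 8.72 to 9.13 in WT.

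Paralog group 4, of the neck and upper trunk, was detected in all 4 clusters. Hoxc4 read 7.19, 7.14, 7.16, 7.40, 7.19 and 7.23 in WT 1 to 6 and 7.59, 7.33, 7.48, 7.21, 7.42 and 7.54 in KO 1 to 6, with a change of 0.21 (SE 0.08, limma adjusted p = 0.102). Of the KO libraries, 4 lay above all WT libraries, and Hoxc4 passed in the fit without KO 4 alone (limma adjusted p = 0.0494). Hoxa4 read 7.01, 6.70, 6.79, 7.09, 6.83 and 6.87 in WT and 7.28, 6.94, 7.03, 6.95, 7.04 and 6.98 in KO, with a change of 0.16 (SE 0.08, limma adjusted p = 0.247). Hoxd4 read 7.11, 6.56, 6.73, 6.71, 6.81 and 6.92 in WT and 7.27, 6.94, 6.89, 6.97, 6.86 and 7.09 in KO, with a change of 0.20 (SE 0.10, limma adjusted p = 0.204). For Hoxd4 the gene is uncertain, since 52.3% of its merged exons are shared with other genes, Hoxd3 among them. A gene on the other strand overlaps 16% of the merged exons of Hoxa4. Hoxb4, known in blood stem cells, read 6.50, 6.35, 6.53, 6.39, 6.55 and 6.37 in WT and 6.37, 6.34, 6.34, 6.39, 6.12 and 6.57 in KO, with a change of -0.09 (SE 0.08, limma adjusted p = 0.483). Thus 3 of the 4 estimates were above 0 and none passed the test.

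The most anterior tested genes were Hoxa2, Hoxa3 and Hoxb3. Hoxa2, the gene of the second branchial arch, read 6.20, 6.20, 6.29, 6.15, 6.19 and 6.04 in WT and 6.43, 6.27, 6.31, 6.24, 6.34 and 6.32 in KO, with a change of 0.14 (SE 0.07, limma adjusted p = 0.185). All 6 KO libraries lay above the WT median, at 5.01 to 21.02 estimated reads. Hoxa3, known for the thymus and parathyroid, read 7.10, 6.81, 6.71, 6.96, 6.68 and 7.13 in WT and 7.19, 6.97, 7.02, 6.86, 6.74 and 7.14 in KO, with a change of 0.09 (SE 0.10, limma adjusted p = 0.584). Hoxb3 read 6.60, 6.64, 6.47, 6.28, 6.36 and 6.65 in WT and 6.79, 6.34, 6.63, 6.41, 6.59 and 6.71 in KO, with a change of 0.08 (SE 0.09, limma adjusted p = 0.617). The groups overlapped in all 3 genes. Exons of other genes, mostly on the other strand, cover 27.1% of Hoxa3 and 52.9% of Hoxb3, and without strand their reads cannot be told apart. A gene on the same strand overlaps 15.0% of the merged exons of Hoxa2.

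Groups 5 to 7 were expressed at low levels and did not pass the test in any member. Hoxa5, known in lung and trunk skeleton, read 6.82, 6.71, 6.73, 6.57, 6.94 and 6.97 in WT and 7.02, 6.67, 7.05, 6.71, 6.74 and 6.63 in KO, with a change of 0.01 (SE 0.09, limma adjusted p = 0.956); its sign turned in 7 alternatives. Hoxb5 read 6.50, 6.12, 6.32, 6.03, 6.11 and 6.47 in WT and 6.41, 6.40, 6.13, 6.09, 6.08 and 6.27 in KO, with a change of -0.03 (SE 0.10, limma adjusted p = 0.884). Hoxc5 read 6.95, 6.69, 6.62, 6.78, 6.86 and 6.91 in WT and 6.96, 6.58, 6.90, 6.54, 6.59 and 6.72 in KO, with a change of -0.09 (SE 0.09, limma adjusted p = 0.562). Exons of Hoxc10 overlap 5.37% of the merged exons of Hoxc5, and reads of that part could count for either gene. In WT, Hoxc10 averaged 689.7 scaled reads per kilobase and Hoxc5 12.1. The estimates of group 5 lay between -0.09 and 0.01. Hoxb6 read 6.57, 6.23, 6.25, 6.31, 6.11 and 6.49 in WT and 6.17, 6.31, 6.55, 6.18, 6.25 and 6.35 in KO, with a change of -0.03 (SE 0.09, limma adjusted p = 0.885). Hoxc6, of the thoracic trunk, read 7.00, 6.64, 6.83, 6.93, 6.96 and 6.99 in WT and 7.02, 7.00, 7.05, 7.10, 7.04 and 6.92 in KO, with a change of 0.13 (SE 0.07, limma adjusted p = 0.281), and 5 KO libraries lay above all WT libraries. In Hoxa7 the values were 7.35, 7.39, 7.23, 7.45, 7.27 and 7.04 in WT and 7.70, 7.23, 7.42, 7.18, 7.09 and 7.27 in KO, with a change of 0.03 (SE 0.10, limma adjusted p = 0.888). In Hoxb7 they were 6.45, 6.26, 6.25, 6.08, 6.33 and 6.08 in WT and 6.51, 6.34, 6.41, 6.16, 6.25 and 6.48 in KO, with a change of 0.12 (SE 0.08, limma adjusted p = 0.399). For Hoxa7, KO 1 was the highest of all 12 libraries, and an RNA on the other strand, Hoxaas3, overlaps 20.4% of its merged exons.

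Single libraries stood out across members. WT 4 was the highest WT library in 10 of the 25 tested genes and WT 5 the lowest in 10. These were the WT libraries with the lowest and the highest summed fibroblast markers (11039 and 20714 scaled reads). WT 4 also had the greatest estimated depth in WT (16909431 reads) and the highest summed fibre markers (4303271). WT 6, with the next lowest fibroblast sum (12254), was the highest WT library in 4 genes. The part of depth or cell content in the Hox values was not tested. In KO, KO 1 was the highest in 12 and KO 4 the lowest in 9. Their summed fibroblast markers, 16477 and 17031, lay inside the KO range of 13096 to 20470, and KO 1 had the highest summed Schwann cell and nerve markers, 5023 against 252 to 1062 in the other KO libraries. The members of a cluster share regulatory regions and are not independent measurements.

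Of the proteins that work with Hox factors or on their genes, the cofactors had no call. Of 9 TALE genes 7 were tested, with 2 estimates above 0 and a median change of -0.10. Pknox1 had the smallest p-value (-0.26, limma adjusted p = 0.0647), and Pknox2 (-0.19, 0.183) and Pbx2 (0.14, 0.189) also lay above the threshold. Among 12 noncoding RNAs of the clusters, 9 are in the table and 2 passed the filter. Hoxa11os, antisense to Hoxa11, gave 0.12 (limma adjusted p = 0.555), and Hotair, an RNA of the HoxC cluster, gave 0.06 (0.703).

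Among limb patterning factors, 2 of 14 tested genes fell and none rose, beside 3.08% and 3.12% of all tested genes. Sall4, a zinc-finger factor of limb outgrowth, fell by 0.38 (SE 0.09, limma adjusted p = 0.029), from 7.00 ± 0.09 to 6.62 ± 0.22 (SD, n = 6 each), with WT libraries at 6.85 to 7.09 and KO libraries at 6.33 to 6.88. Lbx1, the homeobox gene of migrating limb muscle precursors, fell by 0.36 (SE 0.10, limma adjusted p = 0.041), from 9.23 ± 0.12 to 8.87 ± 0.24. The call of Sall4 ended without any of WT replicates 2, 3, 5 and 6 and KO replicates 1, 3 and 6 (adjusted p 0.0508 to 0.0705), and that of Lbx1 without any of WT replicates 1, 2, 3, 4 and 6 and KO replicates 1, 3 and 6 (0.0544 to 0.0948). Tbx15, a factor of fast fibres, gave -0.28 (adjusted p = 0.191) and Prrx1, of limb mesenchyme, -0.16 (0.310). The median of the list was -0.08. Alx4, a homeobox gene of the early limb bud, was below the filter and had the largest shift of the list: it read 6.01, 5.93, 6.17, 6.03, 5.79 and 5.99 in WT 1 to 6 and 7.02, 5.96, 7.00, 6.69, 6.55 and 6.63 in KO 1 to 6. All KO libraries but KO 2 lay above all WT libraries. Without the filter its change was 0.65 (SE 0.14, limma adjusted p = 0.0159), which makes 3 calls in the list. Of 3 tested factors of head muscle none was called, and Tcf21 stood at the floor in all libraries.

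Of 26 Polycomb subunits, all tested, 2 rose and 1 fell, with a median of -0.02, beside 3.12% and 3.08% of all tested genes. Ring1, a ubiquitin ligase of the PRC1 complex, rose by 0.38 (SE 0.10, limma adjusted p = 0.0324), and Pcgf2, also of PRC1, rose by 0.42 (SE 0.11, adjusted p = 0.0375). Kdm2b, which brings a PRC1 form to CpG islands, fell by 0.42 (SE 0.12, adjusted p = 0.0486). Of 14 Trithorax and MLL subunits 2 fell, beside 3.08% of all tested genes: the demethylase gene Kdm6a by 0.32 (SE 0.09, adjusted p = 0.0439) and the methyltransferase gene Kmt2c by 0.29 (SE 0.08, adjusted p = 0.0473), with a list median of -0.02. Each of these 5 calls ended when any of 7 to 10 libraries was left out. For all 5 genes these included WT replicates 2, 3, 5 and 6 and KO replicates 1, 3 and 6, WT 1 as well for all but Ring1, KO 5 for Kdm2b and Kmt2c, and WT 4 for Kdm2b (adjusted p up to 0.117). Other settings ended the call of Kmt2c in 7 cases (adjusted p 0.0514 to 0.113), of Kdm6a in 4 (0.051 to 0.0611), of Kdm2b in 3 (0.0508 to 0.0992) and of Pcgf2 with limma-voom on estimated reads (0.072), and that of Ring1 in none of those tried. The number of Trithorax and MLL genes called was 0 with limma-voom and with log2 CPM of estimated reads, and 1 with no trend and no robust moderation, with quantile normalization or without the filter. Kmt2b, with the next smallest p of that list, went the other way (0.28, limma adjusted p = 0.0695). It was called higher with the transcript length correction (0.35, limma adjusted p = 0.0424) and without KO 2 (0.31, 0.0390).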

How the data were processed

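Poly-A RNA-seq libraries of gastrocnemius from 12 mice were prepared without strand marking, per the labels' protocols. Tools listed are STAR, featureCounts and fastp, with the build mm10, per the submitters' processing notes, with no versions. The authors deposited normalized values on a log2 scale, whose transformation is not given in the sources used here. The values follow a variance-stabilized form: inverted, 87.39% to 93.61% of low values per library lay within 0.1 of a whole read. These estimated reads served for the filter, for levels per kilobase and for alternatives. KO and WT were compared with limma 3.58.1 (R 4.3.3, trend and robust moderation) on the deposited values of 12222 of 24528 genes, with Benjamini-Hochberg adjustment over all of them and calls at an adjusted p at or under 0.05. On data simulated for this comparison (12222 genes) 86% of 100 genes shifted by 0.5 and 100% of 100 shifted by 1 were called, with 8 false calls. The simulated noise was normal and independent for each gene, without variation shared by the genes of a library. These shifts were larger than any estimate of the tested Hox genes (-0.20 to 0.30). The simulation therefore does not show how often changes of the size seen in Hox genes would be called. Gene models are GENCODE M21 and levels use merged exons. The members and gene lists were chosen with earlier results of these data known. Per-library values are given for every tested Hox gene and for Hoxb9 and Alx4, which were chosen after their values were seen; of other lists at most 4 tested genes with the smallest p are named, and every limb identity factor. Genes at or near the floor and the called markers Flt1, Myh11, Adipoq, Plin1, Cdh15 and Sdc4 are named as well, after their values were seen. A few members and sequences are not reported here. Depth limits the low genes, and the p-values measure the spread between mice, which are separate animals per the labels.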

Additional observations from a re-analysis of the deposited data

Results flagged for a closer look

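In 54 groups of 6 libraries (the 25 tested Hox genes, Ank2 and Tbx4 in each genotype), 4 had a highest or lowest library whose gap to the next was over 0.625 of the whole range; chance gives about 1 in 20. Hoxa4 in KO 1 was the highest KO value at 7.28, with the other libraries at 6.94 to 7.04. Hoxa11 in WT 5 was the lowest WT value at 7.05, with the others at 7.77 to 7.96. Hoxc4 in WT 4 was the highest WT value at 7.40, with the others at 7.14 to 7.23. Hoxd8 in KO 3 was the lowest KO value at 9.65, with the others at 9.89 to 9.99.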

How the results depend on the processing

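The single Hox call was lost (0 called) with no trend and no robust moderation, with the transcript length correction, without the filter and with the replicate number as a block, and 2 Hox genes passed at an adjusted p at or under 0.1. Leaving out 1 library gave 0 to 3 Hox calls higher in KO and 0 lower; the cause was not tested. Small estimates changed sign: Hoxa5 to -0.011 with quantile normalization and -0.052 with the length correction, and Hotair to -0.00135 with the latter. Leaving out 1 library gave ranges of -0.038 to 0.047 for Hoxa5, -0.050 to 0.072 for Hoxa7, -0.073 to 0.0033 for Hoxb5, -0.075 to 0.024 for Hoxb6 and -0.092 to 0.0091 for Hoxd8. With the longest transcript as length, cluster A held 19.3% of the Hox sum in WT and 18.0% in KO, cluster C 46.2% in WT, and Hoxc10 37.4% in WT and 39.5% in KO. The Ank2 change was -1.15 and lay between -1.496 and -1.083 in all alternatives run for it. The replicate numbers did not pair the libraries: same-numbered deviations correlated at -0.360 to 0.291, and 1 of 6 WT libraries matched its own number best. With the replicate block, 818 genes were called against 757, and Hoxd9 had an adjusted p of 0.0769. Over all genes, leaving out 1 library gave 190 to 1515 calls.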
